A study of Mus musculus with 4 samples.

Results

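The distal end of an autosome was taken here as its last 5 Mb, the tip that lies farthest from the centromere. The members were all 40 kb bins that start within the last 5 Mb of each of the 19 mouse autosomes, counted back from the largest end coordinate of the bin table in the mm9 genome build. Of 2375 such bins, 2348 were kept in both contact matrices, and they were compared with 49735 interior bins lying more than 10 Mb from both ends of their chromosome. The whole bin table held 66382 bins, of which 58938 were autosomal and kept in both matrices. Each end contributed between 120 and 125 kept bins.

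The series holds Hi-C, a genome-wide map of which DNA segments are ligated to each other after crosslinking and HindIII digestion, from male mouse embryonic stem cells. Wild-type (WT) cells of the N3 line were grown in 2i medium. Cells carrying a deletion of Firre, an X-linked locus that encodes a long non-coding RNA, were grown in 2i medium on irradiated feeder fibroblasts that were removed before use, although another sentence of the study places both cultures on feeders. Each group had 2 libraries, described as technical duplicates and combined in 1 matrix. There was therefore no replicate, no difference was tested, and every interval below is a 95% interval for counting error in the read pairs alone. Labelled genotype, culture and possibly cell line differ together and cannot be told apart.

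Mouse autosomes carry the centromere at the start of the assembled sequence, so each has a centromeric end and a distal end rather than a pair of long arms. Both tips are capped by telomeres, repetitive tracts bound by the shelterin proteins, which keep the tips from being treated as broken DNA. Distal ends of mouse chromosomes are often rich in genes and in GC, and gene-rich segments of different chromosomes tend to contact each other in Hi-C. For that reason contacts of the ends were read against interior bins of the same gene density.

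Read pairs numbered 65611035 in WT and 46635652 in the Firre KO-labelled matrix, recovered from the corrected values, and 16.1% and 35.6% of them joined different chromosomes. In read pairs within the X chromosome, the bin wholly inside Firre had 1550 of 906921 in WT and 1144 of 796087 in the Firre KO-labelled matrix, so the deletion was not seen as an absence of reads there, and the label is used only as a label. The ratio of read pairs joining the X chromosome to autosomes over those joining different autosomes was 0.0385 in WT and 0.0615 in the Firre KO-labelled matrix, and its bearing on the labels was not tested. The part that the larger share of interchromosomal read pairs had in the differences between the matrices was not tested. A median of 2248 read pairs touched an end bin in WT and 1607 in the Firre KO-labelled matrix.

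The last 120 bases of the plus strand in mm9 are shown for the ends of chromosomes 8 and 17, because this pair had the highest contact in WT against matched interiors, though not with interchromosomal totals as the expected value. Both are printed in lower case from the reference genome, with no part marked.
chr8:131738752-131738871: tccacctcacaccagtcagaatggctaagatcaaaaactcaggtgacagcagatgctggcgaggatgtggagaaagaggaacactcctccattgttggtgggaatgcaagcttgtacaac
chr17:95272532-95272651: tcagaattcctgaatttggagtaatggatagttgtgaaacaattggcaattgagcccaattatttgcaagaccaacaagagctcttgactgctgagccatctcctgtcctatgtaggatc

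On no autosome did an assembly gap touch the last base, although some of the last 5 Mb hold gaps further in, with 4.78 Mb of assembled sequence on chromosome 16. The first 3 Mb of each autosome, on the centromeric side, are not assembled.

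Averaged over bins, distal ends were more gene-dense and GC-rich than interiors. They averaged 12.2 protein-coding gene starts per Mb against 8.78 in interior bins and 9.05 in the first 5 Mb of kept bins at the centromeric end. Mean GC content was 43.9% in the ends and 41.8% in interiors, and a bin held 12.2 HindIII sites in the ends and 12.9 in interiors. Median gene density was 8 starts per Mb in the ends and 6 in interiors. The ends varied widely among themselves, from 1.14 gene starts per Mb at the end of chromosome 17 to 32.9 at that of chromosome 10. Those of chromosomes 1, 3, 5, 6, 8, 12, 13, 14, 16, 17 and 18 lay below the interior mean. In the 5 classes of gene density into which autosomal bins were divided, 31.2% of end bins fell in the densest and 5.15% in the class without a gene start within the surrounding 1 Mb. Of the 49735 interior bins, 10342 fell in the densest class and 5512 in the class without a gene start.

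Of a list of telomere genes, 11 were found on autosomes by name. Among them Rtel1, which encodes a helicase that unwinds DNA structures at telomeres, lies in a distal end, at chr2:181054444-181091321, 657 kb from the end of chromosome 2. The genes for the shelterin proteins Terf1, Terf2, Terf2ip, Acd, Tinf2, Pot1a and Pot1b lie elsewhere on the autosomes. The protein-coding gene nearest the tip of chromosome 2 was Gm14496, 17 kb from the last base, that of chromosome 11 was Gm9631 at 25.8 kb and that of chromosome 8 was 1700008F21Rik at 31.2 kb. On chromosome 17 it was 2610044O15Rik at 108 kb. For the ends with the lowest contact it was Gm7120 on chromosome 13, 0.035 kb from the last base, Wls on chromosome 3 at 0.986 kb, which encodes a carrier protein needed to secrete Wnt ligands, and Vmn2r87 on chromosome 10 at 58.8 kb, a member of the vomeronasal pheromone receptor family. The bin that holds Gm7120 was not kept in both matrices, so its contacts are not part of the values below.

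Distal ends of different autosomes contacted each other more than they contacted interiors of the same gene density, in both matrices. The mean corrected contact of 2611447 bin pairs joining ends of different autosomes was 0.0131 in WT, from 41021 read pairs, and the mean of the same ends with interior bins in matched density classes was 0.00719. The ratio was 1.82 (1.80 to 1.84). In the Firre KO-labelled matrix the means were 0.0137, from 43262 read pairs, and 0.0105, with a ratio of 1.31 (1.29 to 1.32). On the log2 scale the ratio was 0.86 in WT and 0.39 in the other matrix, a difference of -0.48 (-0.50 to -0.45). Corrected values in the matrices have different totals per bin, 1995 in WT and 1439 in the other, so means are compared only within a matrix and ratios between them.

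Ends also had more contact with interiors of other autosomes than interiors had with each other. Against pairs of interior bins in the same density classes, ends contacted each other 2.26 (2.23 to 2.28) times as much in WT and 1.48 (1.46 to 1.5) times as much in the Firre KO-labelled matrix, and they contacted interiors of other autosomes 1.24 and 1.13 times as much. When the expected contact was instead the product of the interchromosomal totals of both bins, the log2 ratio was 0.55 in WT, 0.21 in the Firre KO-labelled matrix and -0.33 for the difference. The uncorrected read pairs gave 0.88, 0.42 and -0.45.

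As a share of all contacts, contact between ends was higher in the Firre KO-labelled matrix, and its excess over matched interiors was lower. Contacts with other distal ends made up 1.53% (1.51 to 1.54) of the contacts of an end bin in WT and 2.19% (2.16 to 2.21) in the Firre KO-labelled matrix. Matched interiors in the same number of bins would have given 0.839% and 1.67%. The excess was 0.687 percentage points (0.668 to 0.705) in WT and 0.514 (0.488 to 0.540) in the Firre KO-labelled matrix.

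The preference for other ends held in every pair of gene density classes. Over distal with interior contacts of the same classes, the ratio ran from 1.36 to 2.02 in WT and from 1.18 to 1.48 in the Firre KO-labelled matrix. The bins without gene starts gave 1.99 in WT from 24 read pairs (1.26 to 3.13), and the densest class with itself gave 2.02 from 8090 read pairs (1.97 to 2.08). In the Firre KO-labelled matrix the corresponding values were 1.48 (1.01 to 2.16) and 1.30 (1.26 to 1.34). Ends also preferred gene-rich over gene-poor interiors more than interior bins did, in medians over all bins without matching for gene density. The median log2 preference was 0.83 against 0.40 in WT and 0.55 against 0.34 in the Firre KO-labelled matrix. Matching this preference along with gene density left a log2 ratio of 0.79 in WT and 0.37 in the other matrix.

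The contact was steepest at the tip itself. Relative to interior pairs of the same density classes, the last 1 Mb contacted distal ends of other autosomes at 3.23 (3.17 to 3.28) times the expected level in WT, the next step at 2.19 (2.15 to 2.23) and the step from 4 to 5 Mb at 1.84 (1.80 to 1.88). In the Firre KO-labelled matrix these steps stood at 1.74 (1.71 to 1.78), 1.46 (1.43 to 1.49) and 1.37 (1.35 to 1.40). Pairs with both bins in the same step entered these sums from each bin, and the intervals treated them as separate. Intervals of steps within the last 5 Mb are therefore too narrow. The limit of 5 Mb is not visible as a step in the profile, since the bins just outside it, from 5 to 6 Mb, stood at 1.80 (1.77 to 1.84) in WT and 1.33 (1.30 to 1.35) in the other matrix. Between 29 and 30 Mb from the end the level was 1.43 in WT and 1.23 in the Firre KO-labelled matrix.

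**Figure D1:**
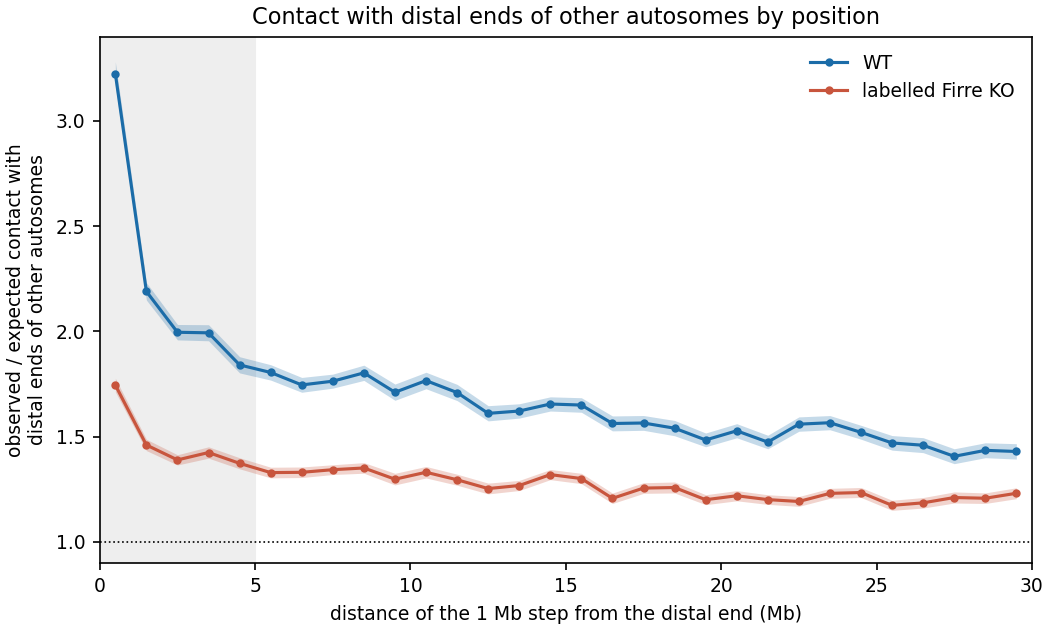
Observed over expected contact with the distal ends of other autosomes (vertical axis, no unit) for 1 Mb steps by distance from the distal end (horizontal axis, Mb) in WT (blue) and the Firre KO-labelled matrix (red), with 95% counting bands, the last 5 Mb shaded and 1 dotted. The last 1 Mb stands at 3.23 in WT and 1.74 in the other matrix, and neither curve has a step at 5 Mb. Bands within the last 5 Mb are too narrow, because pairs within a step entered from each bin.

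With interchromosomal totals the profile was lower and its highest value was again at the tip. Its intervals within the last 5 Mb are too narrow for the reason given above. With the product of totals as the expected value, the last 1 Mb stood at 1.94 (1.91 to 1.98) in WT and 1.26 (1.24 to 1.29) in the Firre KO-labelled matrix, the step from 4 to 5 Mb at 1.20 and 1.1, and the step from 29 to 30 Mb at 1.05 in both. Along the whole chromosome, divided into 20 equal parts from the first kept bin to the distal end, the same measure went from 0.81 in the first part to 1.39 in the last in WT and from 0.86 to 1.15 in the Firre KO-labelled matrix. On the density scale the first part stood at 1.11 and 1.08 and the last at 2.16 and 1.45.

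Among the combinations of 1 Mb steps within distal ends, contacts between the very tips were the highest. Pairs of bins that both lay in the last 1 Mb of their autosome stood at 6.87 (6.60 to 7.14) times the expected level in WT, from 3777 read pairs, and at 2.44 (2.32 to 2.58) in the Firre KO-labelled matrix, from 2064. The last 1 Mb with the second Mb of another autosome stood at 2.91 (2.80 to 3.03) and 1.65 (1.58 to 1.72), and the fifth Mb with the fifth at 1.73 (1.61 to 1.87) and 1.27 (1.19 to 1.35). All other combinations of steps lay between 1.78 and 2.24 in WT and between 1.32 and 1.57 in the other matrix. Leaving out the last 1 Mb lowered the log2 ratio of end with end over end with interior contacts to 0.64 in WT and 0.30 in the Firre KO-labelled matrix.

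**Figure D2:**
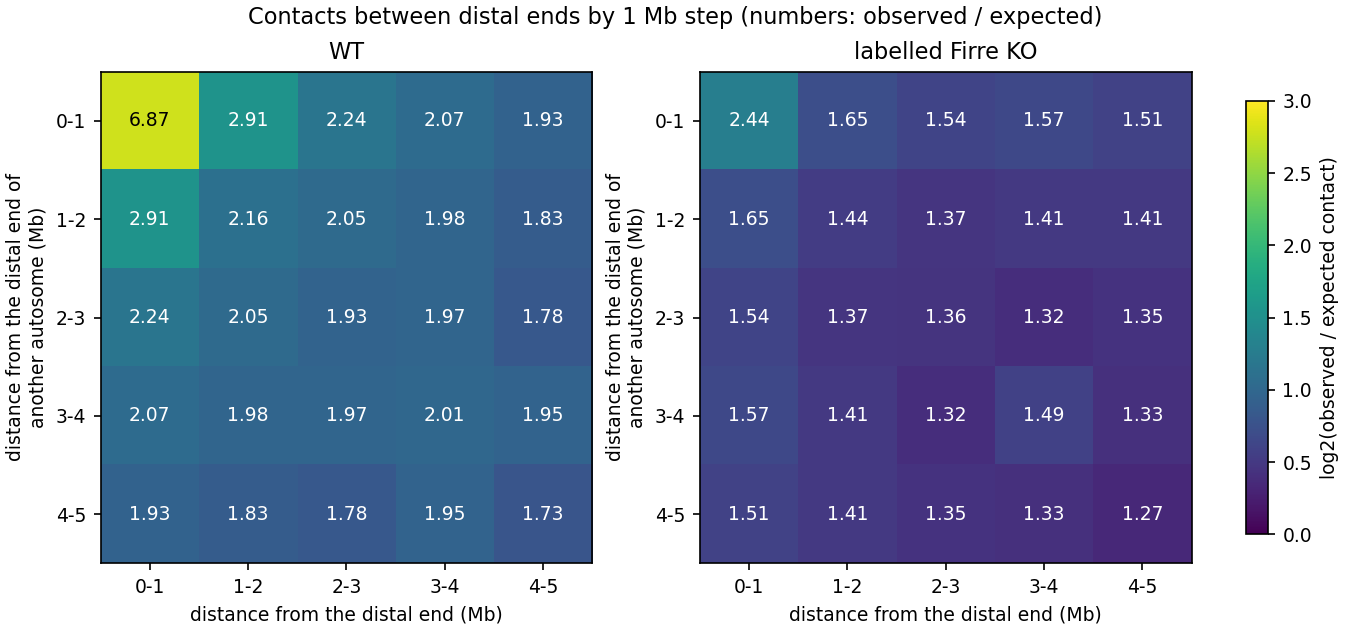
Observed over expected contact between distal ends of different autosomes, divided into 1 Mb steps from the tip (both axes, Mb), in WT (left) and the Firre KO-labelled matrix (right). Colour gives the log2 value and the printed numbers the ratio, and the corner where both bins lie in the last 1 Mb stands out at 6.87 and 2.44.

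Exact sequence shared between tips was measured, since reads from near-identical copies are hard to place. The measure counts any shared word over 1 Mb, so it cannot tell local near-identical copies from scattered ones, and misplaced reads were not tested. Between the last 1 Mb of 2 autosomes, a median of 1.76% of distinct words of 31 bases were shared (0.566% to 4.30% over 171 pairs), against 1.27% (0.342% to 3.15%) between windows of the same size in the middle of the chromosomes. The 86 pairs of tips at or below the median of sharing had a median contact of 5.39 times the expected level in WT and 1.94 in the Firre KO-labelled matrix, and the 85 pairs above it 5.29 and 2.24. Over the 171 pairs, sharing and contact in the last 1 Mb had a Pearson r of 0.072 and a Spearman rho of -0.0074 in WT and of 0.20 and 0.25 in the other matrix, as a description of pairs that share ends.

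Most, but not all, pairs of ends stood above the expected level. Over all 171 pairs the median observed over expected contact was 1.97 in WT and 1.46 in the Firre KO-labelled matrix. Above 1 were 167 pairs in WT and 166 in the other matrix, where 47.1% and 49.7% of all 108752 interchromosomal pairs of 5 Mb blocks were above 1. Above 1.5 were 134 pairs (78.4%) in WT and 74 (43.3%) in the Firre KO-labelled matrix, against 8.86% and 3.64% of all block pairs. The counting interval lay above 1 for 155 pairs in WT and 149 in the other matrix. With interchromosomal totals as the expected value, fewer pairs stood above 1, with 134 in WT and 128 in the Firre KO-labelled matrix. Shares of all block pairs were not measured for these last counts.

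**Figure D3:**
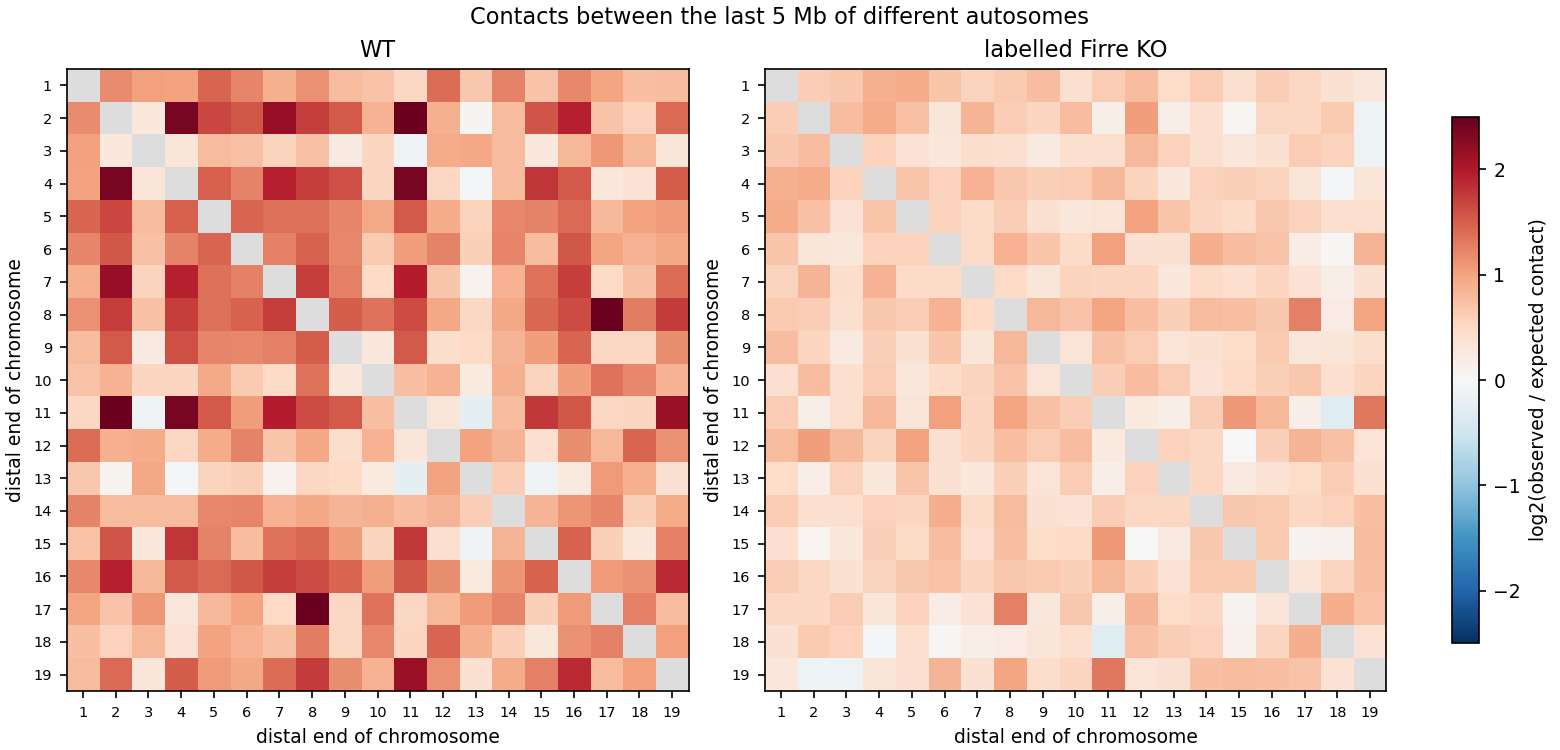
Observed over expected contact (colour, log2, same scale in both panels) between the last 5 Mb of each pair of autosomes (both axes, chromosome) in WT (left) and the Firre KO-labelled matrix (right), with grey for an end with itself. Chromosomes 2, 4, 7 and 11 form a dark group in WT, the pair of 8 and 17 is as dark, at 5.51 against 5.43 for 2 and 11, and values are paler in the other matrix.

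The highest pair of ends in WT on the density scale joined chromosomes 8 and 17, at 5.51 (4.78 to 6.35) times the expected level, an interval that holds the value of chromosomes 2 and 11, 5.43. With interchromosomal totals the pair of 2 and 11 was the highest at 3.42, and 8 and 17 stood at 3.25. Relative to the interiors of the same chromosomes, 2 and 11 stood at 6.06 and 8 and 17 at 5.14. The pair of 8 and 17 stood at 2.38 (2.03 to 2.79) in the Firre KO-labelled matrix, from 194 read pairs. These ends differ in gene content, with 6.92 gene starts per Mb on chromosome 8 and 1.14 on chromosome 17. Much of the contact came from the tips, since 133 of the WT read pairs and 67 of the others joined the last 1 Mb of both chromosomes, and without the last 1 Mb the pair stood at 1.49 in WT and 1.12 in the Firre KO-labelled matrix.

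Single bins contributed to this pair. The bin pair chr8:131720001-131738871 and chr17:95200001-95240000 held 23 read pairs in WT, the most of any bin pair between distal ends there, and 7 in the Firre KO-labelled matrix, and these bins shared 4.19% of their 31-base words. The bins at chr10:129960001-129993255 and chr17:95240001-95272651 came next in WT with 11 read pairs and shared 12.4%. The next 4 in WT, with 8 to 10 read pairs each, joined chromosomes 8 and 17 or 11 and 19 and shared 0.0128% to 1.72%. All 29 bin pairs with 5 or more read pairs in WT held 213 read pairs, 0.519% of those between ends. The highest bin pair in the Firre KO-labelled matrix joined chr8:128480001-128520000 and chr9:119360001-119400000 with 19 read pairs, lay away from both tips and shared 0.139% of its words. The next there joined the same chromosome 9 bin and chr8:128560001-128600000 with 10 read pairs and shared 0.0277%. Bin pairs at the tips followed with 7 to 9 read pairs, joining chromosomes 11 and 19, 17 and 19, or 8 and 17, and shared 0.193% to 4.19%. Leaving out all bin pairs with 5 or more read pairs gave log2 ratios of 0.85 in WT and 0.38 in the Firre KO-labelled matrix. Sharing of words between 40 kb bins was measured only for bin pairs with the most read pairs. These percentages therefore have no background of other bin pairs, and their windows differ from those of 1 Mb above.

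Next in WT came pairs among the ends of chromosomes 2, 4, 7 and 11. The ends of chromosomes 2 and 11 stood at 5.43 (5.03 to 5.86) from 978 read pairs, those of 4 and 11 at 5.20 (4.81 to 5.63), those of 2 and 4 at 5.19 (4.75 to 5.67) and those of 2 and 7 at 4.55 (4.16 to 4.97). These pairs stayed high without the last 1 Mb, at 3.80, 4.39, 4.33 and 3.74. The interiors of the same chromosomes did not stand out, with values from 0.83 to 1.08.

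The same pairs were lower in the Firre KO-labelled matrix. The ends of chromosomes 2 and 11 stood at 1.1 (0.973 to 1.25) there, from 331 read pairs, and those of 4 and 11, 2 and 4, and 2 and 7 at 1.76, 1.90 and 1.81. On the density scale its highest pair joined chromosomes 11 and 19 at 2.5 (2.26 to 2.77) from 520 read pairs, and this pair stood at 4.49 (4.08 to 4.94) in WT. Without the last 1 Mb it stood at 1.73 in the Firre KO-labelled matrix and 2.40 in WT, and 11 and 15 stood at 2.28 and 3.47. The third joined chromosomes 11 and 15 at 2.12, with 3.43 (3.16 to 3.71) in WT. Of the 10 highest pairs of each matrix on this scale 3 were the same. With interchromosomal totals the order differed, and the highest pairs of the Firre KO-labelled matrix were 2 and 7 at 1.99 and 2 and 4 at 1.90, with 11 and 19 at 1.67. On that scale 2 and 7 stood at 3.25 and 11 and 19 at 2.27 in WT.

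The lowest pairs lay near or below the expected level on the density scale and further below it with interchromosomal totals. In WT the ends of chromosomes 11 and 13 stood at 0.847 (0.648 to 1.11) from 67 read pairs, and those of 3 and 11 at 0.936 (0.723 to 1.21) from 76. In the Firre KO-labelled matrix the lowest value was that of chromosomes 11 and 18, at 0.815 (0.630 to 1.05) from 76 read pairs, and this pair stood at 1.44 (1.1 to 1.90) in WT. With interchromosomal totals these values were 0.491 for 11 and 13 and 0.552 for 3 and 11 in WT, and 0.497 for 11 and 18 in the Firre KO-labelled matrix. The end of chromosome 11 was a member of the lowest pair in both matrices and of the highest pairs as well.

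Between the matrices, 146 of the 171 pairs of ends were lower in the Firre KO-labelled one, with a median log2 ratio of -0.46. Across all block pairs the value was lower in the Firre KO-labelled matrix in 48.7%. Those block pairs had a median of 0.98 in WT, against 1.97 for the pairs of ends, so the shares are not alike. The share of all block pairs above 1.5 was also lower in the Firre KO-labelled matrix, at 3.64% against 8.86%. How often block pairs as high in WT as the ends were lower was not measured. Over the 171 pairs the values of both matrices had a Pearson r of 0.47 and a Spearman rho of 0.45, given as a description because pairs share ends, sequence and gene content.

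Every distal end stood above 1 with the other ends in both matrices, as did 72.9% of all 480 blocks of 5 Mb in WT and 85.4% in the Firre KO-labelled matrix. In WT the 3 highest were those of chromosome 2 at 2.96 (2.87 to 3.05), chromosome 11 at 2.82 (2.75 to 2.90) and chromosome 8 at 2.80 (2.7 to 2.9), and the intervals of these 3 overlapped. The end of chromosome 4 followed at 2.76 (2.68 to 2.84), which overlapped those of chromosomes 11 and 8. The 3 lowest were those of chromosome 13 at 1.40 (1.32 to 1.49), chromosome 3 at 1.56 (1.48 to 1.66) and chromosome 10 at 1.73 (1.66 to 1.81), each overlapping its neighbour in that order. The end of chromosome 18 came next at 1.85 (1.74 to 1.97), which overlapped that of chromosome 10. The median over the 19 ends was 2.20. With 32.9 gene starts per Mb the end of chromosome 10 was the most gene-dense and yet among the lowest.

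The ends were more alike in the Firre KO-labelled matrix. Values ran from 1.32 (1.25 to 1.39) at the end of chromosome 18 to 1.66 (1.61 to 1.72) at that of chromosome 8, with a median of 1.49. The ends highest in WT stood at 1.46 for chromosome 2 and 1.58 for chromosome 11, and those lowest in WT at 1.35 for chromosome 13, 1.38 for chromosome 3 and 1.46 for chromosome 10. The median over all 480 blocks was also lower, at 1.13 against 1.19 in WT. Blocks other than the ends were more alike as well, from 0.839 to 1.54 against 0.643 to 2.23 in WT. The narrower range was therefore not particular to the ends.

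**Figure D4:**
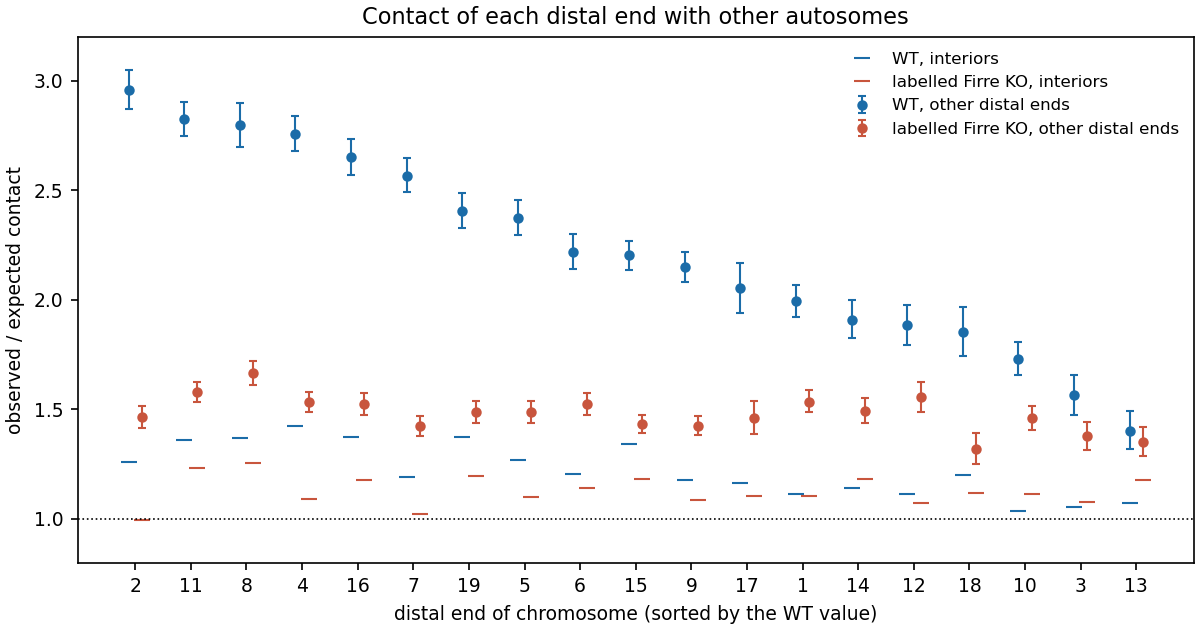
Observed over expected contact (vertical axis, no unit) of each distal end (horizontal axis, chromosome, sorted by the WT value) with the other distal ends (points with 95% counting intervals) and with interiors of other autosomes (dashes), in WT (blue) and the Firre KO-labelled matrix (red). WT points fall from 2.96 for chromosome 2 to 1.40 for chromosome 13, and points of the other matrix lie between 1.32 and 1.66.

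Blocks next to the ends also had high contact with ends. Among the 480 blocks the 19 highest in WT included 13 distal ends, and in the Firre KO-labelled matrix 14. The highest block that was not a distal end was on chromosome 4 in both matrices, beginning 5 Mb from the distal end, and stood at 2.23 in WT and 1.54 in the other matrix.

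Contact of the ends with other ends went with several properties of the ends. It had a Pearson r of 0.83 and a Spearman rho of 0.83 with their contact with interiors in WT, and of 0.81 and 0.79 with their interchromosomal share. These were 0.385 and 0.26, and 0.38 and 0.33, in the Firre KO-labelled matrix. Across the 19 ends, contact with other ends and GC content had a Pearson r of 0.77 and a Spearman rho of 0.78 in WT, against 0.34 and 0.48 for gene density. In the Firre KO-labelled matrix the values were 0.48 and 0.34 for GC content and 0.051 and 0.1 for gene density. The number of HindIII sites per bin gave -0.736 and -0.695 in WT and -0.435 and -0.321 in the Firre KO-labelled matrix. These are descriptions over ends of the same matrix that share depth and base composition. With interiors matched on GC content rather than gene density, the log2 ratio was 0.79 in WT and 0.35 in the Firre KO-labelled matrix.

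Distal ends did not prefer the centromeric ends of other autosomes. Their contact with the first 5 Mb of other autosomes stood at 1.16 (1.14 to 1.17) times that of interior pairs of the same density classes in WT, below the 1.23 of the ends with interiors matched in the same way, and at 1.1 (1.09 to 1.11) against 1.13 in the Firre KO-labelled matrix. Over their own contact with matched interiors, centromeric ends contacted each other 1.87 (1.83 to 1.90) times as much in WT. In the Firre KO-labelled matrix this ratio was 1.61 (1.59 to 1.64). Distal ends stood at 1.82 (1.80 to 1.84) and 1.31 (1.29 to 1.32) in the same measure, with intervals that overlapped in WT only. Against interior pairs, centromeric ends contacted each other at 2.04 (2.01 to 2.08) and 1.79 (1.76 to 1.81) times that level. On this scale pairs of like ends stood above pairs of unlike ends in both matrices. Most single distal ends stood lower with centromeric ends than with interiors of other autosomes. Those of chromosomes 14, 17, 18 and 19 stood higher in both matrices. That of chromosome 10 stood higher in WT only, and those of chromosomes 8, 15 and 16 in the Firre KO-labelled matrix only. The end of chromosome 19 stood at 1.45 with centromeric ends and 1.38 with interiors in WT, and at 1.44 and 1.20 in the Firre KO-labelled matrix.

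With the centromeric end of its own autosome, a distal end had more contact than interior bins the same distance apart. Summed over 17 autosomes the ratio was 1.42 (1.39 to 1.45) in WT from 17029 read pairs and 1.23 (1.19 to 1.26) in the Firre KO-labelled matrix from 9428, a log2 difference of -0.21 (-0.26 to -0.17). This difference was -0.12 with uncorrected read pairs and -0.50 with ends of 2 Mb. Chromosomes 1 and 2 have no value, because too few interior pairs lie that far apart. For the other autosomes the reference comes from longer chromosomes only, so it mixes distance with chromosome. The ratio was above 1 for 15 of 17 autosomes in WT and 14 of 17 in the Firre KO-labelled matrix, with medians of 1.35 and 1.17, and the interval lay above 1 for 12 and 10 and below 1 for 1 in each. The latter were chromosome 4 in WT and chromosome 18 in the Firre KO-labelled matrix, where it stood at 0.876 (0.771 to 0.996) against 1.44 in WT.

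Autosomes differed widely in this contact. The highest in WT were chromosome 14 at 2.91 (2.57 to 3.30), chromosome 13 at 2.25 (2.09 to 2.43) and chromosome 16 at 2.05, with 1.78, 1.31 and 1.48 in the Firre KO-labelled matrix. Chromosome 14 rests on 47 kept bins at its centromeric end. Chromosome 4 was the lowest in WT at 0.665 (0.578 to 0.766), from 286 read pairs, and stood at 1.31 (1.17 to 1.47) in the other matrix, from 413. Chromosome 11 was the highest in the Firre KO-labelled matrix at 2.17 (2.04 to 2.31) and stood at 1.43 (1.35 to 1.53) in WT. Values were lower there than in WT for 12 of 17 autosomes, with intervals apart for 8, and higher with intervals apart for 3. Neither these counts nor those of autosomes above 1 were set against other blocks of the same chromosome at like distances. How common such values are for other blocks was not measured.

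**Figure D5:**
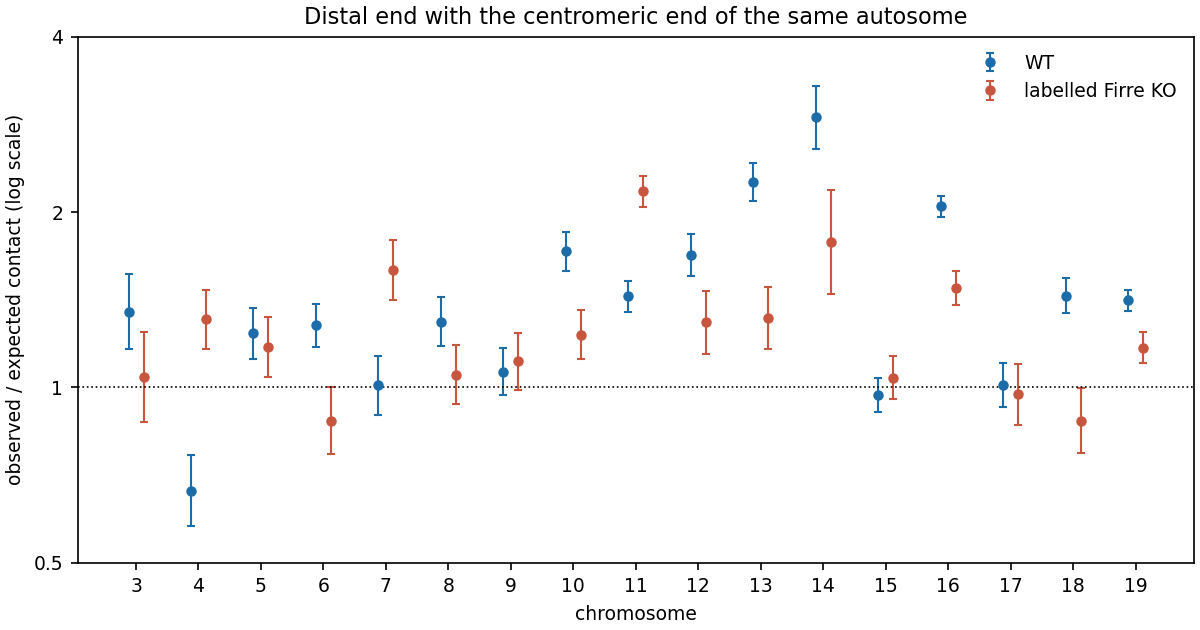
Observed over expected contact (vertical axis, log scale) between the distal and the centromeric end of each autosome (horizontal axis, chromosome), against interior pairs the same distance apart, in WT (blue) and the Firre KO-labelled matrix (red) with 95% counting intervals. Most points lie above 1, chromosome 14 is highest in WT at 2.91, and chromosomes 4, 7 and 11 are higher in the Firre KO-labelled matrix with intervals apart.

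Contact with the first 5 Mb was also set beside contact with the next 5 Mb, which lie nearer the distal end, without matching for distance or gene density. The ratio of contact with the first 5 Mb of kept bins to contact with the next 5 Mb had a median of 1.09 over the 19 autosomes in WT and 0.960 in the Firre KO-labelled matrix, and its interval lay above 1 for 5 and below 1 for 6 autosomes in WT and above 1 for 2 and below 1 for 4 in the other matrix. Chromosome 11 stood apart in both, at 3.44 (3 to 3.93) and 3.17 (2.75 to 3.65).

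End bins spent a larger share of their contacts on other autosomes. The share was 21.1% in WT against 16.7% for interior bins of the same gene density, a difference of 4.38 percentage points (4.34 to 4.43). It was 41.3% against 36.3% in the Firre KO-labelled matrix, a difference of 4.95 (4.88 to 5.01). As a ratio to matched interiors the share stood at 1.26 in WT and 1.14 in the Firre KO-labelled matrix, so the order of the matrices depends on the scale. Single ends ran from 15.1% at chromosome 3 to 27.4% at chromosome 15 in WT and from 34.6% at chromosome 3 to 50.4% at chromosome 11 in the other matrix. The end of chromosome 2 stood below its matched interiors in the Firre KO-labelled matrix, at 37.8% against 38.7%. The difference between the matrices, 0.56 points, turned to -0.24 with uncorrected read pairs and was 0.049 without the last 1 Mb. Without the end of chromosome 2 it was 0.975, and without that of chromosome 13 it was 0.322.

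In corrected values, contacts within an end differed little from those within interiors. At distances from 80 kb to 1 Mb and in the same density classes, they stood at 1.07 (1.06 to 1.07) times the interior level in WT, from 973462 read pairs, and at 1.03 (1.03 to 1.04) in the Firre KO-labelled matrix, from 537934. The ratio ran from 1.02 at chromosome 10 to 1.14 at chromosome 2 in WT and, in the other matrix, from 0.914 at chromosome 10 to 1.13 at chromosome 19. Beyond 1 Mb and up to 4 Mb the ratio was 1.06 (1.06 to 1.07) and 1.01 (1.01 to 1.02). There the ends varied more, from 0.846 at chromosome 5 to 1.33 at chromosome 4 in WT and from 0.546 at chromosome 11 to 1.69 at chromosome 2 in the Firre KO-labelled matrix. With uncorrected read pairs the short-range excess was larger in both matrices and nearly equal between them.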

How the data were processed

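Hi-C used in situ ligation after HindIII digestion. The authors deposited 1 corrected contact matrix per group at 40 kb, in which both libraries of the group, technical duplicates, are combined. The submitters' processing notes name HiC-Pro 2.7.8 and the mm9 build. The deposited values are a balanced contact signal, that is read pairs multiplied by a weight for each bin so that bin totals are equal. The weights were recovered here, and 100% of values divided by them came within 0.05 of whole read pairs. No sequencing depth other than these read pairs was used.

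The members, gene lists and measures were chosen with earlier results of these data known. Distal ends were the last 5 Mb, interiors lay more than 10 Mb from both ends, and bins were matched in 5 classes of protein-coding gene starts in the surrounding 1 Mb (GENCODE annotation of mm9). Observed over expected contact used interior pairs of the same classes. Contact with the own centromeric end was compared with interior pairs in the same 1 Mb class of distance. Named genes were those nearest the tips of the 3 highest and 3 lowest ends in WT and of the highest pair, and telomere genes lying in an end. Intervals are 95% and cover counting error only. With 1 matrix per group no test was made. The alternatives were other scales, classes, limits and expected values, and leaving out low-count bins, high-count bin pairs or each autosome. The measures were run on simulated matrices with known changes. There, contact between chromosomes depended only on bin weights, gene density class and the set change. The simulation therefore cannot show how the measures behave with other differences between bins. Python 3.11.15, numpy 2.4.6, pandas 2.3.3, scipy 1.17.1 and matplotlib 3.10.9 were used. Some sequences at the ends are not reported here.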

Additional observations from a re-analysis of the deposited data

How the results depend on the processing

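Values follow in the order WT, Firre KO-labelled matrix and their difference, and a value left out moved by less than its counting error. Log2 contact between distal ends (0.86, 0.39, -0.48) kept its direction under every alternative. It was 0.42 in the Firre KO-labelled matrix with uncorrected read pairs, 0.79, 0.35 and -0.44 with classes of GC content, 0.90 in WT with interiors beyond 20 Mb, 1.62, 0.64 and -0.98 in the last 2 Mb, 0.61, 0.29 and -0.33 in the last 10 Mb, and 0.64, 0.30 and -0.34 without the last 1 Mb. It was 0.36 in the Firre KO-labelled matrix without low-count bins, 0.55, 0.21 and -0.33 with interchromosomal totals, 0.82 in WT scaled by chromosome pair, 0.79 in WT and -0.42 for the difference with preference classes, and 0.80 in WT and -0.43 for the difference as a mean over chromosome pairs.

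The excess in interchromosomal share (4.38, 4.95, 0.56 percentage points) was 3.99, 3.75 and -0.24 with uncorrected read pairs, so the difference reversed. It was 3.85 and 4.46 with classes of GC content, 4.68 and 5.22 with interiors beyond 20 Mb, 4.80, 6.30 and 1.51 in the last 2 Mb, 4.09, 4.14 and 0.049 without the last 1 Mb, and 4.74 in the Firre KO-labelled matrix and 0.337 for the difference without low-count bins. The cause was not tested.

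Log2 contact with the own centromeric end (0.51, 0.29, -0.21) was 0.38 in the Firre KO-labelled matrix and -0.12 for the difference with uncorrected read pairs, 0.46 and 0.25 with density classes added, 0.42 and 0.23 against all bin pairs, 0.95, 0.46 and -0.50 with 2 Mb ends, 0.47 in WT without low-count bins, and 0.54 and 0.34 as a mean over chromosomes. Log2 short-range contact (0.091, 0.049, -0.042) was 0.197, 0.195 and -0.0026 with uncorrected read pairs, 0.081 in WT and -0.032 for the difference with classes of GC content, 0.128, 0.12 and -0.0075 in the last 2 Mb, and 0.086 and 0.043 without low-count bins.

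Leaving out each autosome in turn gave 0.80 to 0.91, 0.38 to 0.40 and -0.51 to -0.42 for contact between ends, 4.11 to 4.60, 4.71 to 5.12 and 0.322 to 0.975 for the share, 0.45 to 0.55, 0.23 to 0.33 and -0.28 to -0.17 for the centromeric end, and 0.085 to 0.095, 0.041 to 0.057 and -0.050 to -0.037 for short-range contact. The highest difference in share was without chromosome 2 and the lowest without chromosome 13. No paired analysis was possible because both libraries of a group are in 1 matrix. Pairs of ends rest on 58 to 978 read pairs in WT and 75 to 735 in the other matrix, so single pairs are less precise than sums over ends.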
